A study of Mus musculus with 55 samples.

Results

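The comparison described here sets clonal biliary epithelial cells (cBEC, the labels' name for a sorted biliary population) against biliary epithelial cells (BEC) from normal mouse liver, across all genes of the deposited expression table. Its members were taken from the sample titles as the 4 normal cBEC and the 4 normal BEC libraries, 8 of the 55 libraries in the series. The series holds 10 cell populations, each sorted by FACS into TRIzol, either from normal liver or from liver subjected to partial hepatectomy (PH, surgical removal of part of the organ). All animals were of strain C57B/L6 and carried no labelled allele or agent. The normal groups had no labelled treatment. A second set of 2 PH cBEC and 2 PH BEC libraries shares no library with the first. One of its libraries, PH cBEC 1, carries a treatment tag of normal and was kept as titled. The labels give no age, no time after surgery, no batch, no definition of clonal and no statement that replicates came from separate animals, so p-values measure only the spread between these libraries. Whether cells of several animals were pooled is not stated.

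Biliary epithelial cells, or cholangiocytes, line the bile ducts of the liver. They carry keratins 7 and 19 and the adhesion molecule Epcam, modify bile by moving bicarbonate, chloride and water, and bear a primary cilium that senses flow. Some of them can form colonies in culture. The liver surface is covered by a mesothelium, and the ducts lie in portal tracts beside fibroblasts, vessels with smooth muscle, and macrophages.

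The biliary labels were checked against duct genes first. Epcam (chromosome 17, 88035319 to 88050467, mm9, the build of every position given from the table) stood at 307, 357, 388 and 382 FPKM in cBEC 1 to 4. In BEC 1 to 4 it stood at 409, 365, 321 and 412 FPKM, so the groups overlapped fully. FPKM, the unit of the table, counts fragments relative to transcript length and to library size. The difference of mean log2(FPKM + 1), cBEC minus BEC, was -0.07 with a standard error (SE) of 0.17, and limma's adjusted p was 0.915. Every difference below is on this log2 scale, which understates the change of low genes. Spp1, the secreted matrix protein osteopontin, was the most abundant duct gene, at 7313 to 18530 FPKM in cBEC and 13817 to 20522 FPKM in BEC. Krt19 stood at 1383, 394, 506 and 487 FPKM in cBEC 1 to 4 and at 383, 857, 247 and 319 FPKM in BEC 1 to 4. Only cBEC 1 exceeded all BEC libraries for Krt19, and the difference was 0.59 (SE 0.46, limma adjusted p = 0.719). It was 0.20 without cBEC 1, 0.96 without BEC 2 and 0.36 without BEC 3. Of the 20 genes in a list of cholangiocyte identity, 8 had positive and 12 negative differences, with a median of -0.08 over the list against -0.04 over all genes tested. Without cBEC 1, 13 were positive and the median was 0.01. Without BEC 2, 10 were positive and the median was 0.0047. The median was -0.045 without BEC 1 and -0.13 without cBEC 3. Sox9, a transcription factor of the duct lineage, differed by -0.09 (SE 0.16). Of 12 hepatocyte markers 10 were listed at 0 in all 8 libraries, and Alb and Ttr were listed above 0 in cBEC 4 alone, at 779 and 79.2 FPKM. An exact 0 in a table without counts can be a failed estimate and is not taken here as absence of RNA.

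One library stood apart. The first principal component of the 8 libraries held 36.3% of the variance and placed cBEC 1 at -76.1, with the other 7 between -4.09 and 25.5. Its correlations with the other libraries ran from 0.841 to 0.899 across genes, whereas those of all cBEC pairs had a median of 0.918, those of BEC pairs 0.947 and those between groups 0.926. Gene lists and counts are given without this or another library where that turns their direction or moves them by more than 1.5 times. Not every such library is named.

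No gene passed an adjusted p of 0.05 in limma's moderated test of normal cBEC against normal BEC, 0 of 12642 genes tested (0%). At an unadjusted p under 0.05 there were 1041 genes, 537 higher and 504 lower in cBEC. The median 95% confidence interval reached 0.48 to either side of the difference. In simulated data of this design, 183 of 200 genes changed by 2 on the log2 scale were recovered. Those genes were drawn at random from all genes tested, each with its own spread, so the share need not hold for genes of wide spread. A description that needs no test counts the genes whose 4 cBEC libraries lay wholly above or below the 4 BEC libraries with a mean difference of at least 1. By that count 139 genes (1.1% of those tested) were higher in cBEC and 24 genes (0.19%) were lower. Fewer libraries need to be separated when 1 is left out, and the higher count was then 261 without cBEC 3 and 233 without BEC 3. The lower count was 75 without cBEC 1, 61 without BEC 4, 50 without cBEC 4, 47 without cBEC 2 and 39 without BEC 1. Genes past the adjusted threshold numbered 3 without cBEC 3 and 1 each without cBEC 2, cBEC 4 and BEC 2.

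**Figure D1:**
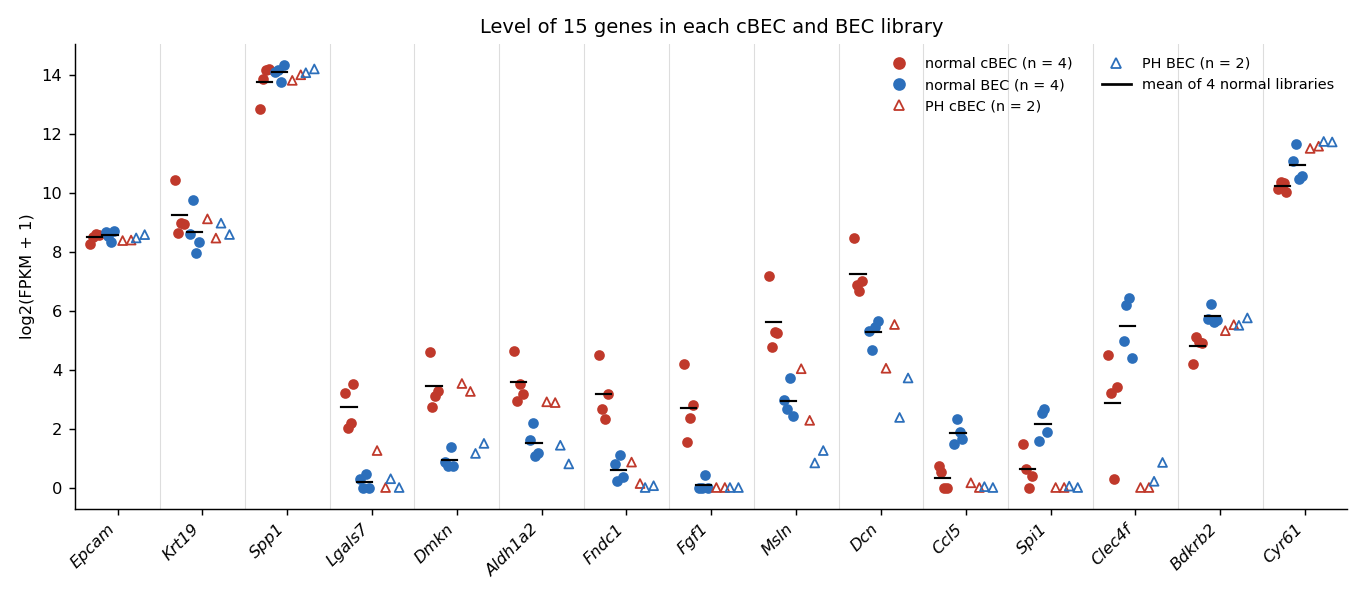
Each point is the level of a gene in 1 library, as log2(FPKM + 1), with filled circles for normal cBEC (red) and BEC (blue), open triangles for the PH libraries and bars for the mean of 4 normal libraries. The duct genes Epcam and Spp1 overlap between the groups, Lgals7, Dmkn, Aldh1a2, Fndc1, Fgf1, Msln and Dcn lie higher in every normal cBEC library, and Ccl5, Spi1, Bdkrb2 and Cyr61 lie lower in every one.

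Genes described next had the smallest p among those under 10 FPKM in hepatocytes and higher by at least 1 without overlap. Their lack of overlap is therefore part of the choice. They were low in BEC and moderately expressed in cBEC. Lgals7 (chromosome 7, 29649405 to 29651303, plus strand) encodes galectin-7, a sugar-binding lectin best known from stratified epithelia. It stood at 8.19, 3.02, 3.59 and 10.4 FPKM in cBEC 1 to 4 and at 0.217, 0, 0.365 and 0 FPKM in BEC 1 to 4. All cBEC libraries lay above all BEC libraries, and the difference was 2.55 (SE 0.35, limma adjusted p = 0.148). Dmkn (chromosome 7, 31561424 to 31566085, plus strand), which encodes dermokine, a secreted protein first described in the skin, stood at 23.5, 5.71, 7.65 and 8.63 FPKM in cBEC 1 to 4. Its BEC libraries held 0.804, 0.658, 1.58 and 0.658 FPKM, again with no overlap, and the difference was 2.52 (SE 0.37, limma adjusted p = 0.148). Aldh1a2 (chromosome 9, 71063596 to 71144050, plus strand) makes retinoic acid from retinaldehyde and is a classical gene of mesothelium. It stood at 24.01, 6.71, 10.51 and 8.04 FPKM in cBEC 1 to 4 and at 2.09, 3.59, 1.11 and 1.26 FPKM in BEC 1 to 4, without overlap. The difference was 2.05 (SE 0.38, limma adjusted p = 0.218). In each of these genes except Lgals7, whose highest library was cBEC 4, the highest library was cBEC 1.

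Other genes named by the same rule are expressed by mesenchymal and surface cells. Fndc1, a fibronectin-domain protein, stood at 21.4, 5.28, 3.99 and 8.01 FPKM in cBEC 1 to 4 and at no more than 1.13 FPKM in any BEC library. Cdh11, a cadherin of mesenchymal cells, stood at 2.86 to 10.4 FPKM in cBEC against 0.208 to 0.669 FPKM in BEC. Adgrd1, an adhesion G protein-coupled receptor, stood at 5.85 to 26.8 FPKM against 0.545 to 1.62 FPKM. Clec3b, which encodes the plasminogen-binding protein tetranectin, stood at 5.97 to 20.3 FPKM against 1.62 to 2.43 FPKM. Mustn1, a small nuclear protein of the musculoskeletal system, stood at 4.12 to 20.7 FPKM against 0.806 to 1.41 FPKM. Their differences ran from 1.82 to 2.55, and their limma adjusted p was 0.218 in each case. Of 127 genes that met the description on the higher side and were under 10 FPKM on average in both hepatocyte groups, 24 stayed under 1 FPKM in every BEC library.

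Promoter sequence is shown for 3 of the genes that were higher without overlap, so that the letters upstream of genes that were higher together can be compared. Each sequence is the 250 bases before the start of the gene, 5′ to 3′ on the gene's strand, from RefSeq on build GRCm38.p6, which differs from the build of the table. Capitals mark a GC box (GGGCGG or its reverse CCGCCC) or a TEAD motif (CATTCC or GGAATG). Lgals7 lies at chr7:28864136-28864385, Aldh1a2 at chr9:71215539-71215788 and Upk3b, a uroplakin of mesothelium, at chr5:136038246-136038495, all on the plus strand.
Lgals7: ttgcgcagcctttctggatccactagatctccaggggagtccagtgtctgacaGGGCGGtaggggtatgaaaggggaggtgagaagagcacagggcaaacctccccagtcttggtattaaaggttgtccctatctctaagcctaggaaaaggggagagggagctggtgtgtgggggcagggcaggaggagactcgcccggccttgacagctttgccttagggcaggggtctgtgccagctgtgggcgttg
Aldh1a2: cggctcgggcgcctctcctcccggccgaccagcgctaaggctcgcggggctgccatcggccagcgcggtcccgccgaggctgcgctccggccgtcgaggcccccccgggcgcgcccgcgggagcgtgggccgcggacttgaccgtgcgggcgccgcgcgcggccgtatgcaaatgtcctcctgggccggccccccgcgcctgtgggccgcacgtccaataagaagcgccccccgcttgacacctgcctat
Upk3b: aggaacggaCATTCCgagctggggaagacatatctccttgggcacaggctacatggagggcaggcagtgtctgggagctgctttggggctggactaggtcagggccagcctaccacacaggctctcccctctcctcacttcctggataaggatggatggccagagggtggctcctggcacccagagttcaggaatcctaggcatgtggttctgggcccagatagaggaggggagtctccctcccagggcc
Lgals7 held 1 GC box and Upk3b 1 TEAD motif, and Aldh1a2 held neither. None of the 3 held the TATA box letters TATAAA or their reverse TTTATA. Of 32851 RefSeq promoters cut to the same length, 32.7% held a GC box, 12.6% the TEAD letters and 12.4% the TATA letters. Guanine and cytosine made up 58.8% of the Lgals7 sequence, 77.6% of Aldh1a2 and 60.8% of Upk3b, against a median of 52.4% over all promoters.

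Mesothelial genes were higher in cBEC as a list. All 9 members found in the table, of 10 in the list, were tested, and 9 of 9 differences were positive. Of these, 8 lay higher by at least 1 without overlap, against 1.1% of all genes tested, and 0 passed the adjusted threshold. This list, like every list here, was chosen with earlier results of these data known. Its count is therefore a description and not independent support. The median difference was 2.39, against -0.04 over all genes tested, and 2 of the 9 passed the filter on low values through the cBEC libraries alone. Msln, which encodes the surface glycoprotein mesothelin, stood at 142, 26.4, 38.1 and 36.8 FPKM in cBEC 1 to 4 and at 6.87, 5.28, 12.1 and 4.32 FPKM in BEC 1 to 4 (difference 2.68, SE 0.51, limma adjusted p = 0.231). Upk3b stood at 165, 29.1, 41.9 and 36.9 FPKM in cBEC and at 6.27, 5.31, 13.2 and 4.45 FPKM in BEC (2.79, SE 0.54). Wt1, the transcription factor that marks mesothelium, stood at 15.2, 3.30, 2.38 and 7.12 FPKM against 0.302 to 0.847 FPKM. Lrrn4, Upk1b, Bnc1 and Myl7 differed by 2.72, 2.43, 1.66 and 2.39. The exception was Gpm6a, a neuronal membrane glycoprotein also found in mesothelium, at 68.0 to 90.5 FPKM in cBEC and 55.2 to 87.9 FPKM in BEC (0.12, SE 0.18). The summed level of the list was 160 to 567 FPKM in cBEC and 74.0 to 126 FPKM in BEC. In bulk libraries a smaller share of cells of a type and less RNA per cell cannot be told apart. Without cBEC 1 the median was 1.89, again with 9 positive differences. Higher by at least 1 without overlap were then 8 genes, against 1.17% of all genes tested in the same setting.

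**Figure D2:**
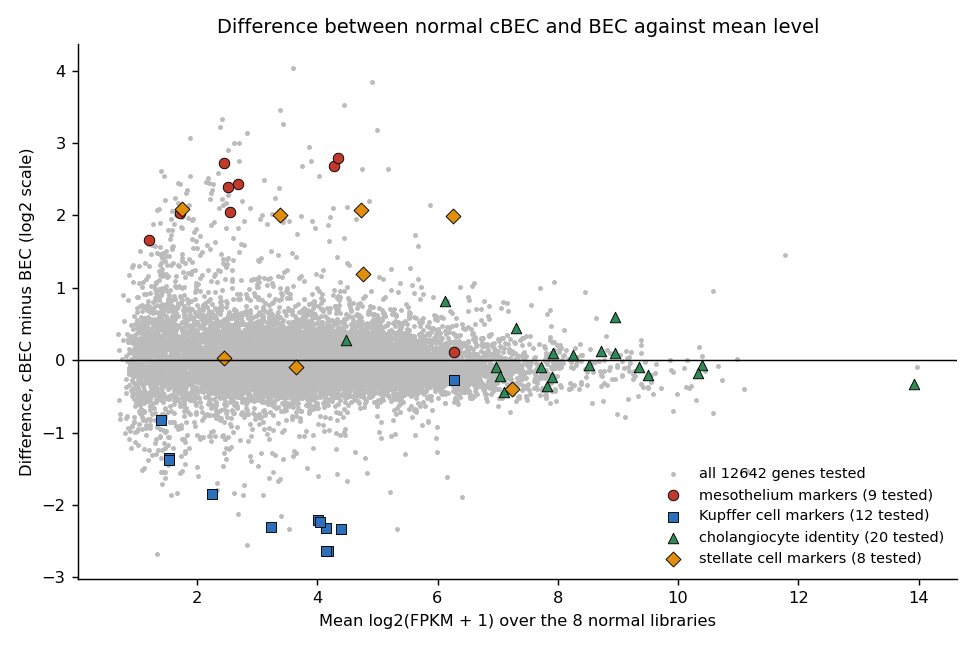
Each grey point is 1 of the 12642 genes tested, placed by its mean log2(FPKM + 1) over the 8 normal libraries and by its difference, cBEC minus BEC, on the log2 scale. Mesothelium markers lie near 2.39, Kupffer cell markers near -2.22, and the more abundant genes of cholangiocyte identity close to 0.

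Stromal genes leaned the same way, less evenly. Of all 12 stellate cell markers, 10 had positive differences, with a median of 0.57 over all 12. Of these, 8 passed the filter on low values and 4 lay higher by at least 1 without overlap, against 1.1% of all genes tested. The summed level was 363 to 886 FPKM in cBEC and 171 to 346 FPKM in BEC. Dcn, which encodes the collagen-binding proteoglycan decorin, stood at 351, 116, 99.9 and 128 FPKM in cBEC 1 to 4 and at 38.9, 24.1, 42.2 and 49.0 FPKM in BEC 1 to 4 (1.99, SE 0.38, limma adjusted p = 0.218). Every cBEC library lay above every BEC library for Dcn. Col1a1, a chain of type I collagen, stood at 95.1, 9.26, 8.76 and 18.4 FPKM in cBEC and 1.63 to 7.89 FPKM in BEC (2.01, SE 0.75). Des, the intermediate filament desmin, stood at 1.46 to 21.1 FPKM in cBEC and 0.359 to 1.17 FPKM in BEC. Reln, a matrix protein of stellate cells in this organ, overlapped fully and stood at 8.08 to 13.8 FPKM in cBEC and 7.72 to 15.6 FPKM in BEC. Of 10 portal fibroblast markers 6 had positive differences, with a median of 0.59, which was 0.11 without cBEC 1.

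Contractile genes were looked at after the differences had been seen. All 10 members of a list of smooth muscle genes had positive differences, with a median of 1.82, and 8 passed the filter on low values. Only 1 lay higher by at least 1 without overlap, against 1.1% of all genes tested. Acta2, smooth muscle actin, stood at 107, 21.9, 6.18 and 68.2 FPKM in cBEC 1 to 4 and at 8.53, 1.53, 0.564 and 2.80 FPKM in BEC 1 to 4 (3.27, SE 0.92, limma adjusted p = 0.471). Tagln, an actin-binding protein of smooth muscle, stood at 134, 24.7, 7.77 and 79.5 FPKM in cBEC and at 3.45 to 7.69 FPKM in BEC. The levels were high in cBEC 1 and 4 and low in cBEC 3. Without cBEC 3 that count was 7 members, against 2.02% of all genes tested in the same setting, and without BEC 1 it was 6, against 1.39%. Leaving out BEC 2, BEC 3 or BEC 4 gave 2 each, against 1.21%, 1.81% and 1.29%. The summed level was 158 to 609 FPKM in cBEC and 97.0 to 132 FPKM in BEC.

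The genes on the higher side were then placed among the other sorted populations of normal liver. Of the 127 genes, 79 (62.2%) had their highest mean level in non progenitor ducts (NPD, a duct sort of the series), 21 (16.5%) in Thy1 cells and 14 (11%) in stellate cells. Over all 8293 tested genes of the same limit on hepatocyte level, these shares were 17.4%, 12.5% and 11.7%. None of the 127 was highest in Kupffer cells, against 8.22% of all. The mesothelium list had a summed level of 7242 FPKM in normal NPD and 2903 FPKM in normal Thy1 cells, against 283 FPKM in cBEC and 96.6 FPKM in BEC, as means of the libraries. In 110 of the 127 genes cBEC 1 was the highest library. Without cBEC 1, 131 genes met the description and 50.4% of them were highest in NPD. Without cBEC 3 and without BEC 3 the numbers were 239 and 202 genes, with 45.6% and 50% highest in NPD. Whether cells of these types in the sorted fractions account for the differences was not tested.

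The genes named on the lower side included genes of macrophages and of other leukocytes. Ccl5, a chemokine of lymphocytes, stood at 0.678, 0.456, 0 and 0 FPKM in cBEC 1 to 4 and at 1.75, 4.02, 2.69 and 2.16 FPKM in BEC 1 to 4 (-1.51, SE 0.30, limma adjusted p = 0.218). Spi1, the myeloid transcription factor PU.1, stood at 1.78, 0.547, 0 and 0.303 FPKM in cBEC and at 1.999, 4.81, 5.29 and 2.72 FPKM in BEC (-1.55, SE 0.37, limma adjusted p = 0.300). In both genes every cBEC library lay below every BEC library, which the rule that named them requires. Slfn2, a schlafen protein of lymphoid and myeloid cells, differed by -1.36, Clec7a, the beta-glucan receptor dectin-1, by -1.23 and Fcgr3, a receptor for antibodies, by -1.56. Cd53, a leukocyte tetraspanin, differed by -1.30 and Mpeg1, a pore-forming protein of macrophages, by -1.22. Their limma adjusted p ran from 0.218 to 0.425. Of 19 genes on the lower side under the same limit on hepatocyte level, 14 (73.7%) had their highest level in Kupffer cells, against 8.22% of all 8293. In the blood sort 3 (15.8%) were highest, a smaller share than the 31.9% of all. Of the 19, 7 stayed under 1 FPKM in every cBEC library. Without cBEC 1 the genes numbered 67, without BEC 4 47, without cBEC 4 34 and without cBEC 2 or BEC 1 32. Over all 8 settings that leave out a library, 47.6% (10 of 21 genes, without BEC 3) to 72.3% (without BEC 4) of them were highest in Kupffer cells.

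Kupffer cell markers, which define the resident macrophages of the liver, all pointed down. Of 12 markers tested, 12 differences were negative with a median of -2.22, 7 had an unadjusted p under 0.05 (3.99% of all genes tested were lower at that p) and 0 passed the adjusted threshold. Lower by at least 1 without overlap were 3 markers, against 0.19% of all genes tested. Clec4f, a lectin particular to these macrophages, stood at 21.5, 8.29, 0.224 and 9.68 FPKM in cBEC 1 to 4 and at 30.1, 71.6, 85.8 and 19.9 FPKM in BEC 1 to 4 (-2.64, SE 0.93, limma adjusted p = 0.555). The groups overlapped, since cBEC 1 exceeded BEC 4. Adgre1, the macrophage antigen F4/80, stood at 3.18, 1.09, 0 and 3.56 FPKM in cBEC and at 5.75, 11.5, 16.2 and 3.68 FPKM in BEC, without overlap. Lyz2, lysozyme of myeloid cells, was listed at 0 in cBEC 3 and stood at 10.0 to 30.4 FPKM in the other cBEC libraries and 21.9 to 87.0 FPKM in BEC. The summed level of the list was 83.2 to 193 FPKM in cBEC and 213 to 638 FPKM in BEC, and none of the 12 was at 0 in all libraries. Without cBEC 3 the median was -1.35, with 3 markers lower without overlap against 0.248% of all genes tested. Without cBEC 1, and likewise without BEC 4, 8 markers lay so, against 0.588% and 0.473%.

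**Figure D3:**
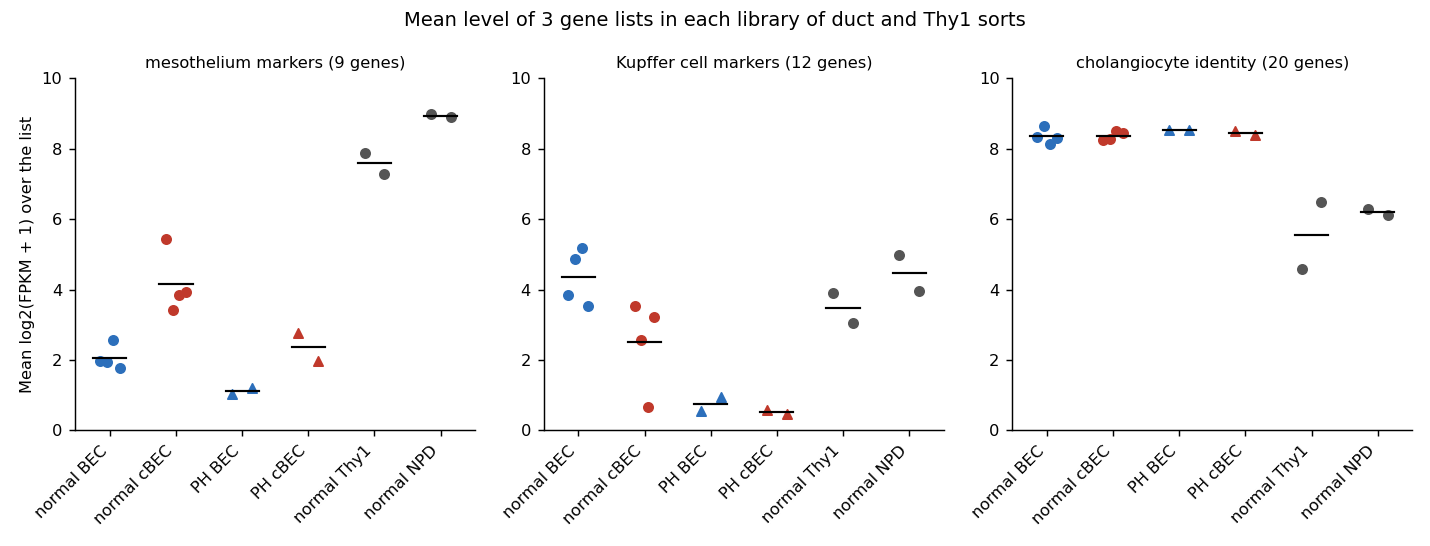
Each point is the mean log2(FPKM + 1) over a gene list in 1 library, with circles for normal liver, triangles for PH and bars for group means. Mesothelium markers averaged 4.16 in normal cBEC, 2.06 in normal BEC, 7.59 in Thy1 cells and 8.95 in NPD, Kupffer cell markers averaged 4.36 in normal BEC, 2.50 in normal cBEC, 0.74 in PH BEC and 0.52 in PH cBEC, and cholangiocyte identity overlapped between cBEC and BEC.

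Lists of vessel and other blood cells were split. Of 11 sinusoidal endothelium markers all 11 differences were negative, with a median of -1.28 (-0.71 without cBEC 3). Lower by at least 1 without overlap were 0 of the 11, against 0.19% of all genes tested, a share too small to expect any. Stab2, a scavenger receptor of sinusoidal endothelium, stood at 9.46, 5.38, 0.021 and 9.70 FPKM in cBEC 1 to 4 and at 8.54, 23.7, 30.3 and 8.13 FPKM in BEC 1 to 4. BEC 2 and BEC 3 were the high libraries and cBEC 3 the low one. Gpr182, a receptor of the same endothelium, differed by -0.95 (SE 0.39). Of 11 general endothelium markers 10 were negative, with a median of -0.80, which was -0.17 without cBEC 3 and -1.42 without cBEC 1. Kdr, the main VEGF receptor, differed by -0.97 (SE 0.71). Of 10 MHC class II genes all 8 tested were negative, with a median of -0.66 over the 10. Among the genes of that list were Cd74, the invariant chain, at -0.71 (SE 0.34), and Ctss, the protease that trims it, at -2.34 (SE 0.79). Of 15 leukocyte genes looked at after the differences had been seen, 14 were negative, with a median of -1.30 (-0.79 without cBEC 3). Of the 15, 3 passed the filter on low values through the libraries of 1 group alone. Lower by at least 1 without overlap were 4 of the 15, against 0.19% of all genes tested. That count was 7 without cBEC 1 and 7 without BEC 1, against 0.588% and 0.302%. All 10 T and NK cell markers and all 8 B cell markers in the table were negative, with medians of -0.41 and -0.51 (-0.31 without BEC 4 for B cells), though 1 and 3 of them passed the filter. Neutrophil markers had 4 positive and 6 negative differences, with a median of -0.07 that turned to 0.04 without cBEC 3. Erythroid markers had 5 positive and 2 negative differences, with a median of 0.08. It turned to -0.23 without cBEC 1, to -0.0027 without BEC 3 and to -0.00087 without BEC 4. The part of these cells in the biliary differences was not tested.

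Several genes expressed in both biliary sorts leaned down in cBEC, and Onecut1 leaned up. Which cells of the sorts expressed these genes was not tested. Bdkrb2, the bradykinin B2 receptor, stood at 17.3, 33.5, 29.8 and 29.0 FPKM in cBEC 1 to 4 and at 51.1, 73.7, 48.3 and 50.8 FPKM in BEC 1 to 4 (-1.02, SE 0.22, limma adjusted p = 0.232). Its groups did not overlap, which the rule that named it requires, and its mean levels in NPD and Thy1 cells were 5.66 and 2.09 FPKM. Cyr61, a matricellular target of the YAP pathway, stood at 1110, 1325, 1277 and 1045 FPKM in cBEC and at 2165, 3247, 1416 and 1507 FPKM in BEC (-0.73, SE 0.27, limma adjusted p = 0.550), again without overlap. Ankrd1, another YAP target, stood at 221, 405, 297 and 335 FPKM in cBEC and at 473, 721, 346 and 391 FPKM in BEC. Over all 16 YAP and TEAD genes in the table the median was -0.04, as over all genes tested, and it ran from -0.13 without BEC 2 to -0.0022 without BEC 1. Hes1, a target of Notch signalling, stood at 477, 541, 513 and 385 FPKM in cBEC and at 784, 769, 445 and 851 FPKM in BEC (-0.54, SE 0.23). The median of the 16 Notch genes was -0.05. It turned positive without cBEC 1, cBEC 3, BEC 1, BEC 2 or BEC 3, at 0.0011 (BEC 1) to 0.03 (cBEC 3). Pdgfc, a platelet-derived growth factor, stood at 69.6, 103, 95.5 and 106 FPKM in cBEC and at 138, 141, 128 and 138 FPKM in BEC (-0.56, SE 0.17, limma adjusted p = 0.468), without overlap. Of the 20 cholangiocyte genes, Onecut1, a transcription factor of duct formation, had the smallest p, at 51.6, 101, 115 and 118 FPKM in cBEC and at 39.1, 42.1, 64.6 and 68.2 FPKM in BEC (0.81, SE 0.28, limma adjusted p = 0.524). Only cBEC 1 fell within the BEC range for Onecut1.

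Genes associated with colony-forming and progenitor cells showed no common direction. St14, the membrane protease matriptase, stood at 86.7, 95.2, 114 and 94.6 FPKM in cBEC 1 to 4 and at 117, 128, 89.5 and 102 FPKM in BEC 1 to 4 (-0.15, SE 0.16). The 95% confidence interval of that difference ran from -0.52 to 0.21. Of the 20 genes in the list 12 had positive and 8 negative differences, with a median of 0.12 (0.08 without cBEC 4). Among the 11 tested, 3 were positive and 8 negative, with a median of -0.12. Dmbt1, a secreted scavenger protein of ducts, varied most, at 5070, 295, 0.230 and 90.2 FPKM in cBEC and at 39.5, 1.68, 4.03 and 6.42 FPKM in BEC (3.84, SE 2.49, limma adjusted p = 0.694). Dmbt1 was highest in cBEC 1 and lowest in cBEC 3, so the spread within cBEC exceeded the difference between groups.

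Secretory and mucin genes of larger ducts had 15 positive and 2 negative differences among the 20 in the table. Among the 7 tested, 6 were positive and 1 negative. The median was 0.36 over all 20 genes of the list, which was 0.23 without cBEC 1, and 3 were at 0 in all libraries (Tff1, Ces1f and Cyp2f2). Tff2, a trefoil peptide that protects mucosa, stood at 155, 69.0, 49.4 and 80.5 FPKM in cBEC 1 to 4 and at 45.7, 44.99, 33.3 and 52.8 FPKM in BEC 1 to 4 (0.88, SE 0.30, limma adjusted p = 0.516). Muc1, a membrane mucin, stood at 596, 188, 263 and 265 FPKM in cBEC and at 142 to 270 FPKM in BEC (0.69, SE 0.33). Pigr, which carries IgA into bile, differed by 0.47 (SE 0.32). In Tff2, Muc1 and Pigr the high library was cBEC 1. Of the 24 genes of bicarbonate and fluid transport the median was 0.08, and 0.03 to 0.15 on leaving out a library. Aqp5, a water channel, differed by 0.80 (SE 0.30), and Aqp1, a water channel of ducts and of endothelium, stood at 456 FPKM in cBEC 1 and 25.4 to 55.3 FPKM in the other cBEC libraries against 34.4 to 137 FPKM in BEC. Aqp1 had a mean of 1262 FPKM in NPD, and its direction without cBEC 1 turned to -0.79.

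**Figure D4:**
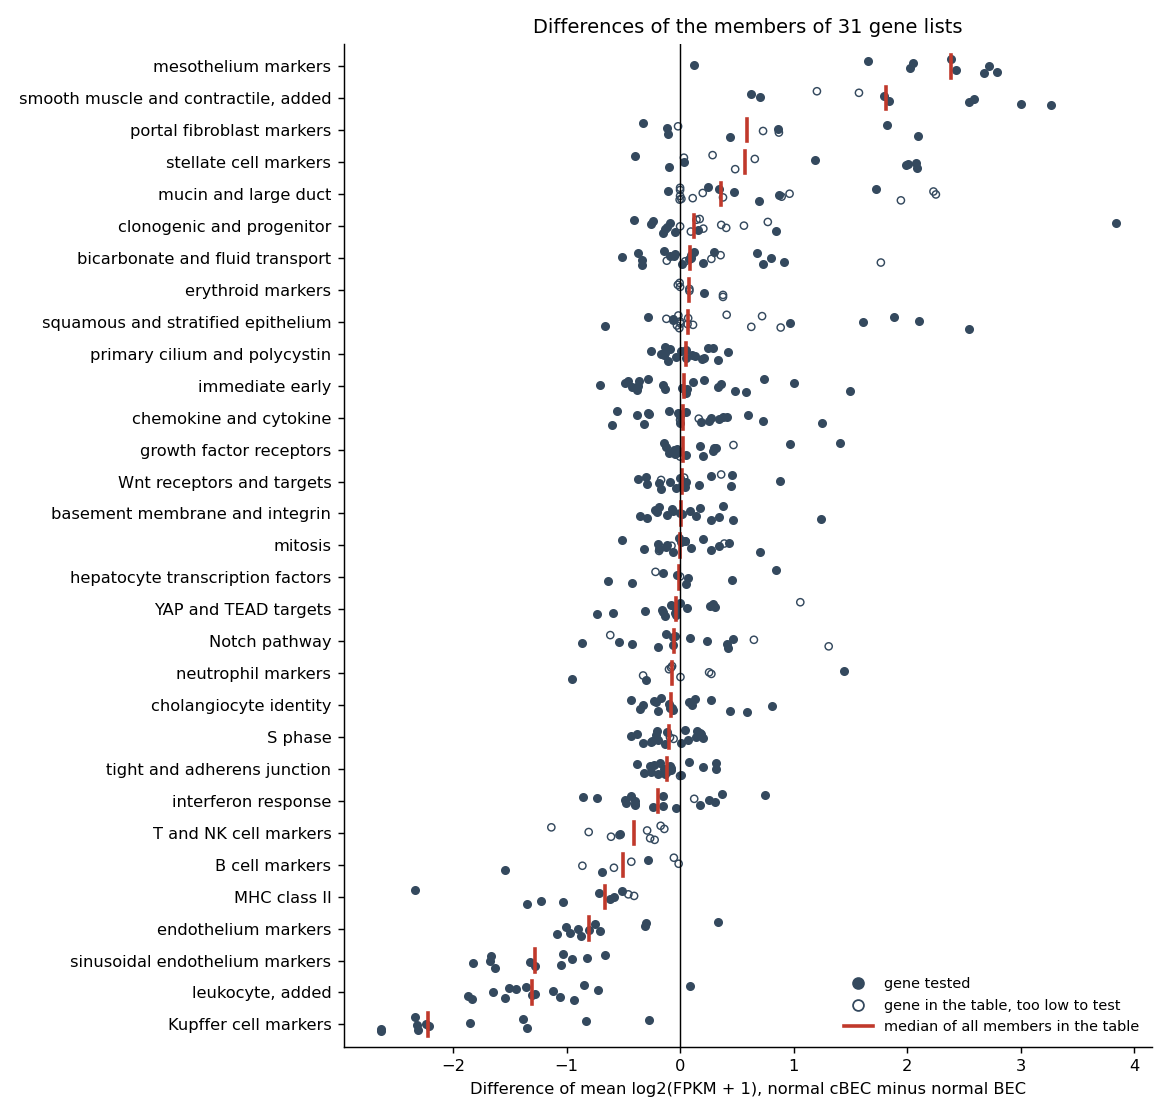
Each point is the difference of mean log2(FPKM + 1), normal cBEC minus normal BEC, of 1 gene in each of 31 lists, filled where the gene was tested and open where it was too low, with red bars at the median of all members in the table. Mesothelium markers lie at the top with a median of 2.39 and Kupffer cell markers at the bottom with -2.22, and most signalling and cell cycle lists lie close to 0.

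Lists of junctions, cilium, basement membrane, Wnt, growth factor receptors, chemokines, immediate early genes and the cell cycle had medians between -0.12 and 0.05 over their members in the table, with 0 genes past the adjusted threshold. On leaving out a library they ran from -0.22 to 0.20 and turned sign in all of these lists but the junction and Wnt lists. The lowest was that of the immediate early genes without cBEC 1 and the highest that of the mitosis genes without cBEC 3. Cdh1, the epithelial cadherin, stood at 534, 535, 633 and 534 FPKM in cBEC 1 to 4 and at 817, 674, 580 and 625 FPKM in BEC 1 to 4 (-0.26, SE 0.18). Pkhd1, the fibrocystin of the cilium, differed by -0.11 (SE 0.20). Mki67, a marker of dividing cells, stood at 3.65, 5.27, 1.11 and 7.91 FPKM in cBEC and at 0.806, 3.51, 1.42 and 2.94 FPKM in BEC, with overlap (0.71, SE 0.45). The immediate early genes Jun and Egr1, which rise within minutes of stress or dissociation, differed by -0.38 (SE 0.21) and 0.01 (SE 0.19). In the squamous list Lgals7 was joined by Anxa8, a calcium-binding annexin, at 14.3, 1.93, 4.59 and 3.74 FPKM in cBEC against 0.0632 to 1.30 FPKM in BEC (1.88, SE 0.46). Among the other sorted populations of normal liver, Lgals7, Anxa8 and Dmkn had their highest mean level in NPD. So had the mesothelial genes Msln, Upk3b, Wt1 and Aldh1a2. The median over the 22 squamous genes was 0.07, and 0.04 without cBEC 1. Among interferon-response genes Gbp2, a guanylate-binding protein, had the smallest p, at 0.74 (SE 0.24), while the median of the list was -0.20. That median was 0.03 without BEC 2, -0.09 without cBEC 1 and -0.36 without BEC 1.

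Genes at 10 FPKM or more on average in either hepatocyte group were kept apart. Echdc2, a mitochondrial protein of the enoyl-CoA hydratase family, stood at 114, 116, 155 and 162 FPKM in cBEC 1 to 4 and at 50.0, 61.1, 77.5 and 79.2 FPKM in BEC 1 to 4, with no overlap (1.02, SE 0.20, limma adjusted p = 0.218). Fgf1, a fibroblast growth factor, stood at 17.1, 1.89, 4.08 and 5.91 FPKM in cBEC and was listed at 0 in 3 BEC libraries and at 0.327 FPKM in BEC 3 (2.61, SE 0.47, limma adjusted p = 0.218). Rdh5, a retinol dehydrogenase, differed by 1.60 (SE 0.36). On the lower side, Tmprss6, the protease that restrains hepcidin, stood at 14.3 to 37.4 FPKM in cBEC and at 43.2 to 68.0 FPKM in BEC (-1.05, SE 0.26). Cox7c, a subunit of cytochrome oxidase, and Immp2l, a mitochondrial peptidase subunit, differed by -1.46 (SE 0.36) and -1.49 (SE 0.33). All 6 genes were named among genes without overlap and with a difference of at least 1, so their lack of overlap was part of the choice.

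The PH libraries gave a second look at the same contrast with separate samples. In 2 PH cBEC against 2 PH BEC libraries, 0 of 12072 genes (0%) passed limma's adjusted threshold, 206 had an unadjusted p under 0.05, and the smallest adjusted p was 0.9998. The count was 22 without PH cBEC 1 and 2 without PH BEC 1, where the lone sample of the group is assumed to vary like the others. In simulated data of that design 90 of 200 genes changed by 2, again drawn at random from all genes tested, were recovered. Of the 127 genes higher in normal cBEC, with no filter on their level after PH, 117 (92.1%) had a positive difference after PH and 10 a negative one, with a median of 0.58. Over all 8293 genes under the same limit on hepatocyte level, 53.2% were positive and the median was 0.01. Of the 127, 74 passed the filter after PH, and 23 of these had no PH BEC library at 1 FPKM, so that passing fixed their sign. Of the remaining 51, 44 were positive. With the set redefined without cBEC 1, 108 of 131 genes (82.4%) were positive, and without BEC 3 163 of 202 (80.7%), with a median of 0.30. Of the 19 genes on the lower side 13 were negative, 3 positive and 3 without any difference, with a median of -0.06. Redefined without cBEC 1, 36 of 67 were negative. Of the 19, 5 passed the filter after PH, and 3 of those were negative. Without cBEC 1, 7 of the 10 that passed were positive, and without cBEC 3, 1 of 8. The summed Kupffer list was 43.3 to 60.1 FPKM in PH cBEC and 46.5 to 50.8 FPKM in PH BEC, so both PH groups lay below every normal BEC library.

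**Figure D5:**
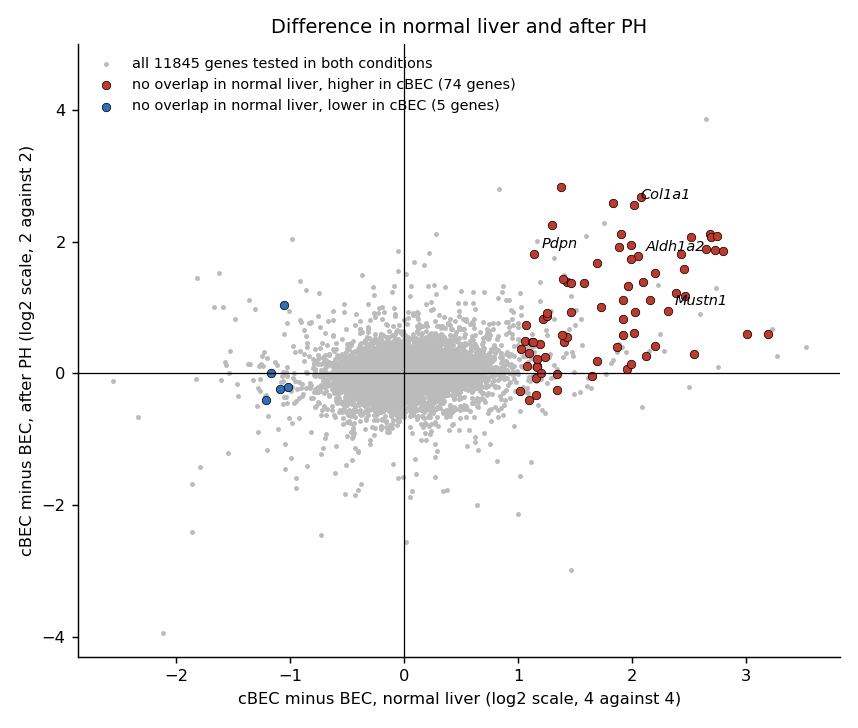
Each grey point is 1 of 11845 genes tested in both conditions, placed by its difference cBEC minus BEC in normal liver (4 against 4 libraries) and after PH (2 against 2), both on the log2 scale. The red points are the 74 genes higher without overlap in normal liver that could be tested after PH, of which 67 lie above 0 and 23 passed the filter through the PH cBEC libraries alone, and the blue points are the 5 lower ones.

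With the 12 libraries of both conditions in a single fit with a term for treatment, 2 of 12359 genes (0.0162%) passed limma's adjusted threshold, and 926 had an unadjusted p under 0.05. Dmkn rose by 2.37 in cBEC (SE 0.27, 95% confidence interval 1.78 to 2.95, limma adjusted p = 0.00563). Its PH libraries stood at 10.53 and 8.57 FPKM in cBEC and at 1.23 and 1.82 FPKM in BEC, so that all 6 cBEC libraries lay above all 6 BEC libraries. Aldh1a2 rose by 1.96 (SE 0.28, limma adjusted p = 0.0362), with 6.50 and 6.36 FPKM in PH cBEC and 1.70 and 0.742 FPKM in PH BEC. Dmkn passed without each of the 12 libraries in turn, and lost the call with no filter on low values (adjusted p = 0.0603). Aldh1a2 lost it without any 1 of 9 libraries, normal cBEC 3 and 4, normal BEC 1, 3 and 4 and all 4 PH libraries, leaving 1 gene. It also lost it with no filter (adjusted p = 0.254), quantile scaling (0.160) and upper-quartile scaling (0.108). Without normal cBEC 1 the count was 20 genes. Close to the threshold were Adgrd1 at 2.16 (limma adjusted p = 0.0536) and Pdpn, the membrane protein podoplanin of mesothelium and lymphatic vessels, at 1.36 (limma adjusted p = 0.0615).

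Pdpn stood at 29.3, 17.1, 13.9 and 15.7 FPKM in normal cBEC 1 to 4 and at 9.67, 11.03, 6.41 and 5.16 FPKM in normal BEC 1 to 4. After PH it stood at 18.1 and 20.01 FPKM in cBEC and at 3.80 and 5.72 FPKM in BEC, again without overlap. Col1a1 after PH stood at 7.67 and 4.53 FPKM in cBEC and at 0.0827 and 0.276 FPKM in BEC. On the lower side of the joint fit, Wfdc15b, a protein of the whey acidic protein family, stood at 16.3 to 36.1 FPKM in normal cBEC and 34.9 to 58.6 FPKM in normal BEC, and at 18.9 and 11.6 against 26.4 and 30.6 FPKM after PH. Gng10, a G protein subunit, differed by -0.57 (SE 0.20) in normal liver and by -0.55 after PH.

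Whether the difference between cBEC and BEC itself changed with PH was tested as an interaction, and 0 of 13670 genes (0%) passed limma's adjusted threshold, with 180 at an unadjusted p under 0.05. Without PH BEC 1 the count was 4 and without PH cBEC 1 it was 3. Osr1, a transcription factor of mesenchyme, stood at 14.9, 1.92, 6.54 and 8.14 FPKM in normal cBEC and at 0 to 0.950 FPKM in normal BEC, whereas no PH library of either sort exceeded 0.425 FPKM. Bmp4, a secreted growth factor, stood at 4.205 to 13.6 FPKM in normal cBEC and 0.0768 to 1.77 FPKM in normal BEC, and at 1.61 and 0.875 against 1.19 and 1.03 FPKM after PH. The difference of their 2 contrasts, normal minus PH, was 2.23 (SE 0.75) for Osr1 and 1.88 (SE 0.62) for Bmp4, with a limma adjusted p of 0.9998 for both.

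The smallest p on the lower side in normal liver belonged to a microRNA row, Mir7006, named here after its values were seen. Its row spans chromosome 2 from 181322605 to 181322673 on the minus strand, 69 bases inside the row of Zfp512b, a zinc finger gene on the same strand. The mature sequence is shown because it is the product that the row is named for, with the seed, bases 2 to 8, in capitals (RefSeq, GRCm38.p6, chr2:181587900-181587919, minus strand).
mmu-miR-7006-3p: uUUCUGACcuggauccccag
The row was listed at 0 in all 4 cBEC libraries and at 5.84, 1.70, 10.0 and 7.36 FPKM in BEC 1 to 4 (-2.68, SE 0.39, limma adjusted p = 0.148). Zfp512b stood at 16.4, 25.4, 31.5 and 25.4 FPKM in cBEC and at 23.4, 11.8, 24.5 and 21.5 FPKM in BEC (0.28, SE 0.25, limma adjusted p = 0.749). Reads of the host transcript and of the microRNA hairpin cannot be told apart in a standard library, so the row is not a measure of the mature microRNA.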

How the data were processed

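Members, gene lists and tests were chosen with earlier results of these data known. The deposited table holds FPKM, per the name the authors gave it, 1 column per library. The submitters' processing notes name CASAVA 1.8.2, Bowtie 1.0.0 and mm9, and the counting tool is not given in the sources used here. Read depth is unknown, so no counting interval is given. Of 36141 table rows with 24478 symbols, the row with the highest mean over 55 libraries was kept per symbol. Starts in the table count from 0 and are given here from 1.

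Differences were fitted with limma 3.58.1 (R 4.3.3) on log2(FPKM + 1), with trended, robust moderated variances, two-sided, adjusted by Benjamini-Hochberg at 0.05. Genes needed 1 FPKM in as many libraries as the smaller group. The fit was tested on simulated data. The 4 fits were normal, PH, both conditions with a treatment term, and their interaction.

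Genes were named by rule: the 3 markers; per direction, the 8 genes with the smallest p among those without overlap, a difference of at least 1 and under 10 FPKM in hepatocytes, and 3 above that limit; in each of 30 lists the smallest p and the 2 highest means; and the 3 smallest p per direction of the other fits. Not all genes so found are described, and 1 result is not reported here. The 2 further lists, on smooth muscle and leukocytes, and other list members named were chosen after their values were seen. Lists are described over all members in the table. The alternatives were a pseudocount of 0.1, no filter, 2 other scalings, a fit of all 20 groups, a replicate block, genes low in hepatocytes, the mean over rows and leaving out each library; leaving out libraries for lists was chosen after seeing the data. Figures used matplotlib 3.10.9.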

Additional observations from a re-analysis of the deposited data

Results flagged for a closer look

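In groups of 4 libraries, a highest or lowest library was singled out when its gap to the nearest other was above Dixon's 95% critical share of the group's range. Of 215 values examined 13 met this, and chance alone gives about 1 in 20, or 10.8. In cBEC, Sox9 was low in cBEC 1, at 99.2 FPKM against 126 to 131 FPKM in the others. Cdh1 was high in cBEC 3, at 633 FPKM against 534 to 535 FPKM. Alb stood at 779 FPKM and Ttr at 79.2 FPKM in cBEC 4, and both were listed at 0 in the other cBEC libraries. The hepatocyte markers, on average over the list, stood at 1.33 on the log2 scale in cBEC 4 and at 0 in the others. Genes of the primary cilium averaged 3.74 in cBEC 1 against 4.16 to 4.25.

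In BEC, Fgf1 stood at 0.327 FPKM in BEC 3 and was listed at 0 in the others. Bdkrb2 was high in BEC 2, at 73.7 FPKM against 48.3 to 51.1 FPKM. Hes1 was low in BEC 3, at 444.8 FPKM against 769 to 851 FPKM, and so was Wfdc15b, at 34.9 FPKM against 54.1 to 58.6 FPKM. BEC 2 was low in the mean level of cilium genes, at 3.74 against 4.123 to 4.155, and of growth factor receptors, at 4.02 against 4.43 to 4.46. It was high in erythroid markers, at 1.004 against 0.28 to 0.41.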

How the results depend on the processing

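Normal cBEC against BEC gave 0 genes past the adjusted threshold under a pseudocount of 0.1, no filter, quantile and upper-quartile scaling, genes low in hepatocytes and the mean over a symbol's rows. A fit of all 20 groups gave 241, and leaving out each library 0 to 3. Genes without overlap numbered 149 to 261 on the higher side and 27 to 75 on the lower side on leaving out a library, and 38 on the lower side with a pseudocount of 0.1. After PH the count was 5 with all 20 groups and 0 to 22 on leaving out a library. In both conditions it was 25 with a pseudocount of 0.1, 0 with no filter, 1 with quantile and 1 with upper-quartile scaling, 58 with all 20 groups, 4 among genes low in hepatocytes and 1 to 20 on leaving out a library. The interaction gave 2 with all 20 groups and 0 to 4 on leaving out a library. The cause of these shifts was not tested.

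With the replicate number as a block the counts were 6 in normal liver, 36 after PH, 11 in both conditions and 0 for the interaction. The labels do not say that a number marks a shared animal. Same-numbered normal libraries correlated at 0.13, -0.06, -0.10 and 0.08 in their deviations from the group means. Not every normal library correlated best with its own number, so the numbers were not taken to pair the samples. Same-numbered PH libraries were not compared in this way. With 2 libraries per group after PH, a block leaves little from which to estimate the spread.

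Of 1226 values of 77 genes under the alternatives, 1169 kept direction and side of the threshold, 30 newly passed it, 13 lost it and 14, in 6 genes, changed sign. All of the sign changes were in genes with a difference close to 0. Krt18 was 0.0092 with quantile scaling and Egr1 -0.012 with upper-quartile scaling. On leaving out a library, Epcam ran from -0.15 to 0.00071, Gpm6a from -0.013 to 0.21, Krt18 from -0.22 to 0.18, Sox9 from -0.18 to 0.0022, Aqp1 from -0.79 to 0.58 and Egr1 from -0.038 to 0.10. The table carries no read counts, so the precision of low values, such as those of Lgals7 in BEC, is unknown.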
